A study of Bos taurus with 16 samples.

Results

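The interferon response genes were followed here as a list of 43 genes in the blood and the uterus of dairy cows. The list holds interferon receptors, the transcription factors that carry their signal, and genes that interferons induce. A gene counted as measured where an array probe that is not a control carried its symbol as gene name, and the probes of a gene were averaged. In this way 38 of the 43 genes were measured, by 76 of 46615 probes, against 26554 gene names on the whole array. No probe was named IFI44L, ADAR, OAS1X, OAS1Y or OAS1Z. The 4 probes named OAS1 carried accessions that RefSeq gives to OAS1X (1 probe), OAS1Y (1 probe) and OAS1Z (2 probes), so these genes are described by accession.

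Circulating white blood cells (WBC) and an endometrial biopsy were each measured on 1 array for 8 Holstein cows, sampled between 45 and 55 days post-partum. Of these cows, 4 had subclinical endometritis (SCE), an inflammation of the uterine lining found by histology without clinical signs, and are numbered 718, 833, 836 and 846. The other 4 cows were healthy and are numbered 841, 850, 877 and 883. The 4 groups were therefore WBC of healthy cows, WBC of SCE cows, endometrium of healthy cows and endometrium of SCE cows, with 4 separate cows in each. Per the study's methods, 3 SCE cows and 2 healthy cows were in the luteal phase and the rest in the follicular phase, without a match to single animals, so status and cycle stage were not fully balanced. Both sample types are mixtures of cells, and fewer cells of a type and less RNA per cell cannot be told apart in them. The 8 WBC samples shared a slide and the 8 endometrial samples shared the other, and an effect of the slide therefore cannot be told apart from that of the tissue.

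Interferons are secreted proteins that bind receptors on the cell surface. Type I interferons signal through IFNAR1 and IFNAR2, and interferon gamma through IFNGR1 and IFNGR2. Kinases bound to the receptors activate transcription factors, among them STAT2, which with IRF9 switches on genes that limit viral replication, such as ISG15, MX1, the IFIT genes and the OAS genes. In ruminants the early conceptus secretes interferon tau, which induces the same genes in the endometrium and, in early pregnancy, in blood leukocytes.

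A level is given below as the log2 of the spot's median signal after quantile normalization over the 16 arrays, averaged over the probes of a gene. Levels of different genes come from different probes and were not compared with each other. A spot is called well above background where the scanner software marked it so, which held for 64.7% to 79.8% of the spots of an array. The endometrial array of SCE cow 833 stood apart from the others of its tissue: its median correlation with them was 0.94, and its raw median signal was 115.5 against up to 374 elsewhere. On that array the mean log2 level of 7 stroma markers was 10.83 and that of 4 endothelium markers was 11.06, where the other SCE arrays reached 13.09 for stroma and the healthy arrays at most 9.09 for endothelium. The labelled tissues carried their markers: 4 leukocyte markers (PTPRC, CD53, LCP1, CORO1A) had a mean level of 13.84 to 14.12 in WBC and 8.23 to 9.65 in endometrium, and the stroma markers 6.27 to 6.48 in WBC.

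The probes of the members on which the results turn are shown first, as 60 bases each, 5′ to 3′, with the coordinates the array files give for them (build Btau_3.1). ISG15, the ubiquitin-like protein that is attached to other proteins during the interferon response, had a pair of probes on the minus strand of chromosome 16, at chr16:48718882-48718941 and chr16:48718914-48718973. They overlap, so they are not independent measurements, and capitals mark the 28 bases they share.
ISG15 probe 1: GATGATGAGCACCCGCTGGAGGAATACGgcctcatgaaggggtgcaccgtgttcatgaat
ISG15 probe 2: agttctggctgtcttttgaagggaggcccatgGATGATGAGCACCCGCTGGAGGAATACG

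The IFIT genes encode tetratricopeptide-repeat proteins that bind viral RNA. They are shown because they held both the lowest and the highest tissue difference of the list while lying side by side: their 5 probes spanned 57259 bases of the plus strand of chromosome 26, in the order IFIT2 (chr26:11431248-11431307), IFIT3 (chr26:11448802-11448861 and chr26:11449874-11449933), IFIT1 (chr26:11471107-11471166) and IFIT5 (chr26:11488447-11488506). None of them shared 20 bases with a probe of another gene name. Of the IFIT5 probe only the first 30 bases are shown.
IFIT2: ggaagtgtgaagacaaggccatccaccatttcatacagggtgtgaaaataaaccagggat
IFIT3 probe 1: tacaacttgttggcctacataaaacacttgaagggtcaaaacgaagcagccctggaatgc
IFIT3 probe 2: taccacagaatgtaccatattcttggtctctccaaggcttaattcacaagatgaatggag
IFIT1: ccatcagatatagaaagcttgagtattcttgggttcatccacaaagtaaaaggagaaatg
IFIT5: taagaatttaaaaataagagcactgtcttc

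The OAS genes encode enzymes that are switched on by double-stranded RNA and make 2′-5′ oligoadenylates, which activate RNase L. The 4 probes named OAS1 lay on the minus strand of chromosome 17, and the first 30 bases of each are shown because the probes differed from each other in the cows that gave a signal. The probe with the OAS1X accession (chr17:64590856-64590915) starts 205 bases from a probe with the OAS1Z accession (chr17:64590651-64590710). The second OAS1Z probe lies at chr17:64606830-64606889 and the OAS1Y probe at chr17:64574690-64574749.
OAS1X: ttagatactggctgagctattcatgctgta
OAS1Y: atcccagccttgactttcttctgtgaacct
OAS1Z probe 1: aattatacctgtgtctgccccagaatgaat
OAS1Z probe 2: tgattctcattgtaatacattgagacatgg

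Most interferon response genes had lower levels in endometrium than in WBC of the same cows, with the IFIT genes at both ends. Of the 38 members, 30 were called lower and 1, IFIT5, was called higher in endometrium. A call means an adjusted p of at most 0.05 in limma's TREAT, a moderated test against a minimum change of 1.2-fold, with Benjamini-Hochberg adjustment over 26546 genes. Of all genes, 52.7% were called in either direction, 30.4% lower and 22.3% higher. The median difference of the members was -1.35 on the log2 scale, where that of all genes was -0.15. In every cow measured in both tissues, 27 members were lower in endometrium, where 28.5% of all genes were. Of the 27, IFNAR1 had only 6 such cows. Mean leukocyte marker levels differed between the tissues in the same direction, and their part in these differences was not tested.

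The size of the tissue difference depended on the scaling. Normalizing each tissue on its own sets no common scale between them, so a difference in raw brightness between the slides stays in it. Raw median signals were 115.5 to 374 on the endometrial arrays and 133 to 258.5 on the WBC arrays. When each tissue was quantile-normalized on its own, the median of all genes moved by 0.48 to 0.33, and the share of the called genes that were lower went from 57.7% to 19.8%. With that scaling 17 members were called lower and 5 higher, so the lower share of the called members went from 96.8% to 77.3%. The members no longer called lower were IFNAR1, IFNGR1, IFNGR2, STAT2, ISG15, UBA7, HERC6, USP18, GBP4, TRIM21, OAS1, OAS2 and EIF2AK2, and those newly called higher were BST2, GBP5, IFI27 and IFI6. The members' median was -0.52, and its distance from the median of all genes was -0.85, against -1.203 with the common normalization. Scaling the processed signals of each array to their 75th percentile moved the median of all genes by -0.25. It gave 32 members lower, with CMPK2 and RSAD2 added, and 1 higher, where 36.2% of all genes were lower and 22.9% higher. After normexp background correction 29 members were lower, without OAS2, where 27.8% of all genes were lower and 21.2% higher. Over 5 scalings, 17 members were called lower each time and IFIT5 was called higher each time. Relative to the median of all genes, 32 members were lower in all 5 scalings and 5 (BST2, GBP5, IFI27, IFI6 and IFIT5) were higher in all 5, while IFI44 changed side. The shares of all genes for these counts over 5 scalings were not computed.

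**Figure D1:**
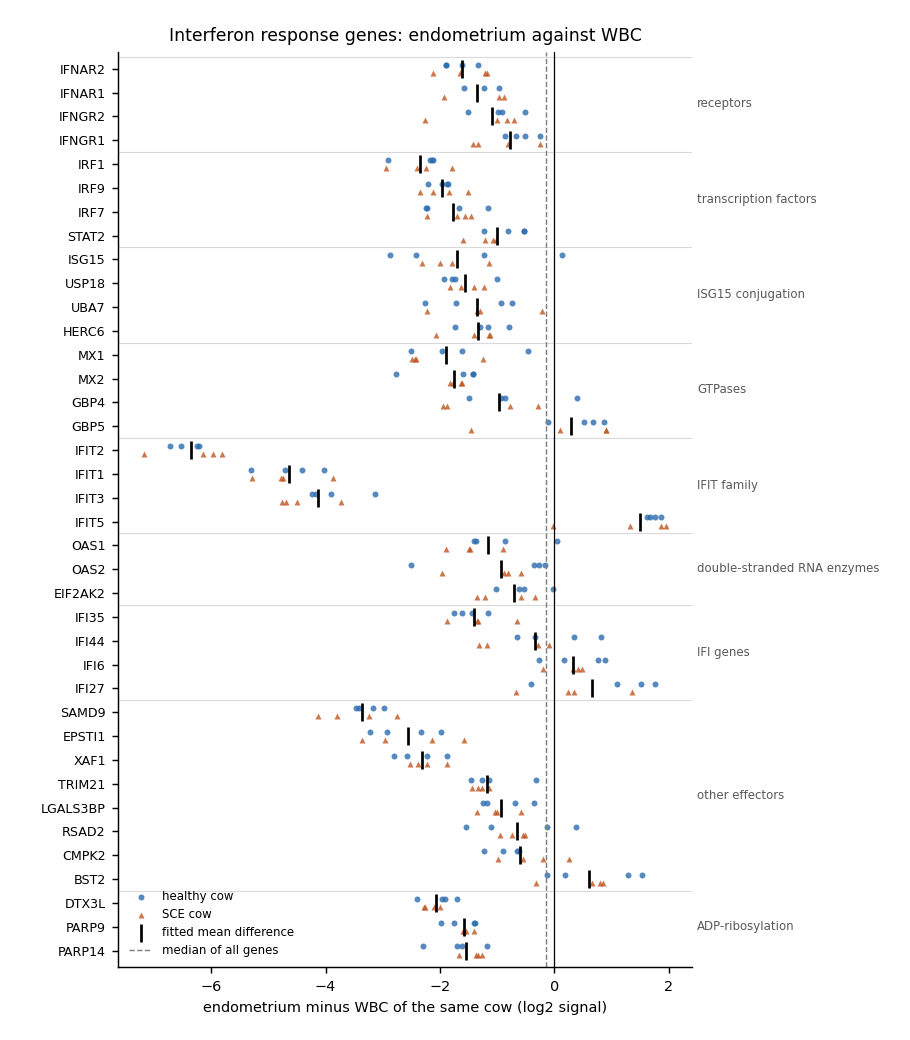
Difference between endometrium and WBC of the same cow for the 38 measured members, in log2 signal on the x axis, grouped by role. Circles are healthy cows, triangles SCE cows, black bars the fitted mean difference and the dashed line the median of all genes (-0.15); IFIT2 lies furthest to the left with every cow at -5.81 or below, and IFIT5 furthest to the right with 7 of 8 cows above 0.

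IFIT2 had the lowest difference of the list. The WBC of healthy cows 841, 850, 877 and 883 had levels of 12.54, 13.35, 13.29 and 12.89, and the WBC of SCE cows 718, 833, 836 and 846 had 13.77, 12.91, 12.94 and 12.25. The endometrium of the healthy cows had 6.34, 6.82, 6.58 and 6.65 and that of the SCE cows 6.60, 6.93, 6.80 and 6.43. This order of the cows is kept in all lists of values below. No endometrial array came within 5 log2 units of any WBC array, and the SCE array of cow 846 was not well above background. IFIT2 was 81.5-fold lower in endometrium (log2 difference -6.35 ± 0.18 SE, limma TREAT adjusted p = 2.49e-13, lower in 8 of 8 cows).

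IFIT1 was measured at 10.03, 10.47, 11.35 and 9.96 in WBC of healthy cows and 11.04, 11.21, 10.31 and 9.47 in WBC of SCE cows. In endometrium the healthy cows gave 5.62, 5.76, 6.04 and 5.93 and the SCE cows 6.25, 5.92, 5.57 and 5.61. Of these 8 endometrial arrays only that of SCE cow 718 was well above background. In healthy cows the difference is therefore a bound: IFIT1 was at least 24.5-fold higher in WBC than in endometrium (limma TREAT adjusted p = 4.12e-08 for that contrast). The endometrial value taken was the higher of the probe's own signal and the lowest signal well above background on each array. That lowest signal was 5.28 to 5.40, below the probe's own signal in every healthy cow, so the bound equals the plain difference of the means.

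IFIT3 gave 10.29, 10.998, 11.15 and 11.07 in WBC of healthy cows and 11.51, 10.91, 11.18 and 10.70 in WBC of SCE cows. Its endometrial levels were 7.15, 6.84, 7.25 and 6.84 in healthy cows and 7.002, 6.22, 6.42 and 6.97 in SCE cows. The tissues did not overlap, and IFIT3 was 17.6-fold lower in endometrium (log2 difference -4.14 ± 0.16 SE, limma TREAT adjusted p = 1.01e-11).

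IFIT5 ran the other way. Its WBC levels were 8.50, 8.77, 8.91 and 8.52 in healthy cows and 8.33, 10.08, 8.33 and 8.43 in SCE cows, the value of 10.08 being that of cow 833. Its endometrial levels were 10.36, 10.53, 10.57 and 10.13 in healthy cows and 10.18, 10.05, 9.65 and 10.37 in SCE cows. Endometrium was above WBC in 7 of 8 cows, and in cow 833 both samples were close (-0.03). IFIT5 was 2.82-fold higher in endometrium (log2 difference 1.50 ± 0.22 SE, limma TREAT adjusted p = 9.06e-05), and without cow 833 the difference was 1.71.

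**Figure D2:**
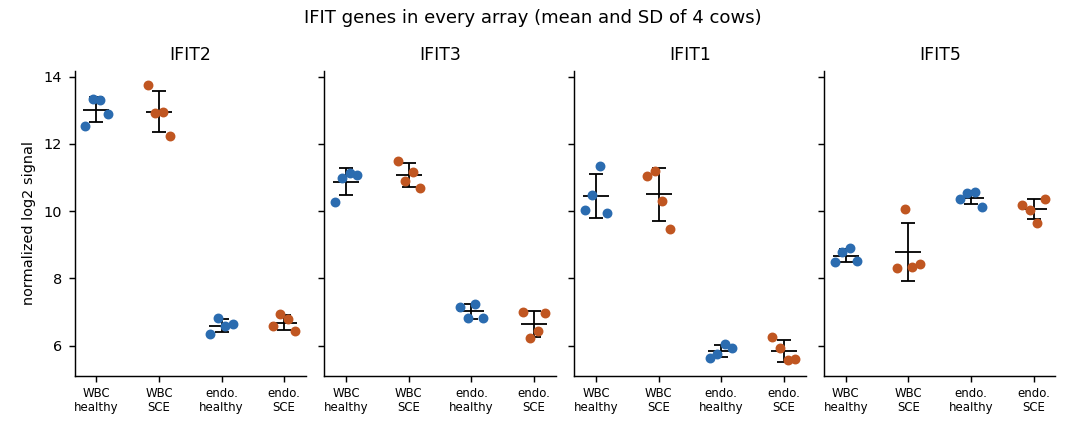
Normalized log2 signal of the 4 IFIT genes on each of the 16 arrays, with the mean and SD of the 4 cows of a group. The panels follow the order of the genes on chromosome 26; levels of different genes are from different probes and are not comparable, and the endometrial points lie below the WBC points in IFIT2, IFIT3 and IFIT1 and above most of them in IFIT5.

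All 4 receptor chains were lower in endometrium. The type I chains IFNAR1 and IFNAR2 differed by -1.36 and -1.61 on the log2 scale, and the interferon gamma chains IFNGR1 and IFNGR2 by -0.77 and -1.09. The IFNAR1 difference sets 6 endometrial arrays against all WBC arrays. The only probe of the gene was masked as an outlier on the endometrial arrays of cows 718 and 877. When each tissue was normalized on its own, only IFNAR2 among the receptors passed the test and IFNGR1 had a difference of 0.13.

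The transcription factors were also lower in endometrium, 4 of 4 by the test. IRF1, which interferon gamma induces, differed by -2.34, IRF9, the DNA-binding part of the STAT complex, by -1.97, and IRF7, which drives type I interferon genes, by -1.78. STAT2 differed by -1.004. Their limma TREAT adjusted p values ran from 1.42e-08 to 2.95e-05. Of the 2 probes of STAT2 and of IRF1, one was well above background on 0 (STAT2) and 1 (IRF1) of 8 endometrial arrays, so its difference is limited by background there. The other probe was so on all 8, with differences of -1.14 and -2.07. Of these factors, STAT2 did not pass when each tissue was normalized on its own (-0.30).

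ISG15 had a wide spread between cows. In WBC it gave 11.58, 13.53, 12.23 and 11.41 in healthy cows and 13.19, 12.89, 11.99 and 11.97 in SCE cows. In endometrium it gave 9.16, 10.67, 10.999 and 11.54 in healthy cows and 12.04, 11.09, 9.996 and 9.66 in SCE cows. The tissues overlapped, and healthy cow 883 had a slightly higher level in endometrium than in WBC (0.13). ISG15 was 3.26-fold lower in endometrium (log2 difference -1.71 ± 0.42 SE, limma TREAT adjusted p = 0.00496, lower in 7 of 8 cows; adjusted p = 0.16 when each tissue was normalized on its own). The enzymes of the same pathway were lower too. UBA7, which activates ISG15, differed by -1.35, HERC6, which attaches it, by -1.34, and USP18, which removes it and damps receptor signalling, by -1.57. These 3 calls were lost as well when each tissue was normalized on its own, with differences of -0.47, -0.43 and -0.63 (adjusted p = 0.327, 0.332 and 0.0748 by limma TREAT).

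MX1, a dynamin-like GTPase that blocks viral nucleocapsids, gave 10.99, 11.70, 11.61 and 10.89 in WBC of healthy cows and 11.63, 11.9997, 11.46 and 11.72 in WBC of SCE cows. Its endometrial levels were 9.02, 9.20, 9.99 and 10.42 in healthy cows and 10.38, 9.58, 9.02 and 9.23 in SCE cows. Every endometrial array lay below every WBC array, and MX1 was 3.72-fold lower in endometrium (log2 difference -1.89 ± 0.23 SE, limma TREAT adjusted p = 9.75e-06). MX2 was lower too (-1.76), with 3 healthy and 1 SCE endometrial arrays well above background. GBP4, a guanylate-binding protein, was lower (-0.97), but its probes disagreed: 2 of them gave -1.56 and -1.49 and the remaining one 0.13. With each tissue normalized on its own, GBP4 was at -0.03 and not called. GBP5 (0.30, adjusted p = 0.649) was not called, but was called higher with that scaling (1.12).

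The enzymes that sense double-stranded RNA were lower in 3 of 3 cases. OAS1 differed by -1.17, OAS2 by -0.94 and EIF2AK2, the kinase that stops translation, by -0.71. These were the calls that single cows decided: all 3 were lost without healthy cow 850 (adjusted p = 0.0606 for OAS1, 0.0849 for OAS2 and 0.0545 for EIF2AK2 by limma TREAT), OAS2 and EIF2AK2 also without SCE cow 833 (0.0791 and 0.0524), and EIF2AK2 also without SCE cow 836 (0.057). EIF2AK2 turned to 0.21 when each tissue was normalized on its own. OAS2 was not well above background on any healthy endometrial array and was so on 2 healthy WBC arrays. In healthy cows its levels overlapped, at 6.17 to 8.06 in WBC and 5.56 to 6.20 in endometrium. The mean difference there was 1.77-fold and did not pass (limma TREAT adjusted p = 0.17), so no bound is drawn from it.

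Among the genes named IFI, IFI35 alone was called, with a log2 difference of -1.40. IFI6 and IFI27, small mitochondrial and membrane proteins, had mean differences of 0.32 (adjusted p = 0.534) and 0.65 (adjusted p = 0.291), and IFI44 had -0.34 (adjusted p = 0.565). With each tissue normalized on its own, IFI6 (0.89) and IFI27 (1.35) were called higher and IFI44 turned to 0.53, while the 75th percentile scaling turned IFI6 to -0.25. For IFI6 the probes went in opposite directions. A probe on the plus strand at chr2:129864763-129864822 had a mean level of 14.61 in endometrium and 13.23 in WBC (difference 1.38, adjusted p = 0.00412). A probe on the minus strand at chr2:129862866-129862925 had 6.48 and 7.22 (difference -0.74). The IFI27 probes gave 1.60 (adjusted p = 0.00755), 0.54 and -0.18. In all, the probes of 27 members could be compared and in 4 (GBP4, IFI27, IFI6 and OAS1) their tissue differences had opposite signs.

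Of the other effectors, 5 of 8 were lower by the test. SAMD9, which restricts poxviruses, differed by -3.37. One of its 2 probes was well above background on 1 of 8 endometrial arrays, and the other, on all 8, differed by -4.20. EPSTI1 (-2.56), the apoptosis factor XAF1 (-2.31), the antibody receptor TRIM21 (-1.17) and the secreted galectin-binding protein LGALS3BP (-0.93) were the other 4. The call of TRIM21 was lost when each tissue was normalized on its own (-0.35, adjusted p = 0.39 by limma TREAT). CMPK2 (-0.61, adjusted p = 0.0677), its neighbour RSAD2 (-0.65, adjusted p = 0.121), which makes an antiviral nucleotide, and BST2 (0.61, adjusted p = 0.164), which tethers budding virus, were not called. CMPK2 did pass with the cow as a block (limma TREAT adjusted p = 0.0381) and without SCE cow 833 (0.00259), and RSAD2 when the slide row was added to the model (0.0491). Both passed with the 75th percentile scaling (-0.89 and -1.35) and turned to 0.16 and 0.09 when each tissue was normalized on its own, where BST2 was called higher (1.54). PARP9, PARP14 and DTX3L, which act in ADP-ribosylation and ubiquitination, were lower too, with differences of -1.58, -1.55 and -2.08. Of the 3 DTX3L probes, 2 were each well above background on 1 of 8 endometrial arrays, so their differences are limited by background. The remaining one, on all 8, differed by -2.70.

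SCE cows and healthy cows did not differ in any interferon response gene by the test, in either tissue. In endometrium 0 of 38 members passed limma's TREAT after adjustment and 0 passed it unadjusted. Over all 26541 genes, 0 passed after adjustment and 100, or 0.377%, unadjusted. In WBC the counts for the members were again 0 and 0, with 0 and 22 (0.0829%) of 26548 genes. In no member did the 4 SCE cows lie wholly above or below the 4 healthy cows, which was the case for 1.49% of all genes in endometrium and 1.31% in WBC. The smallest exact permutation p that 4 cows against 4 can give is 0.029. A p above the threshold does not show that levels were alike, and the intervals below give the differences that remain possible.

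**Figure D3:**
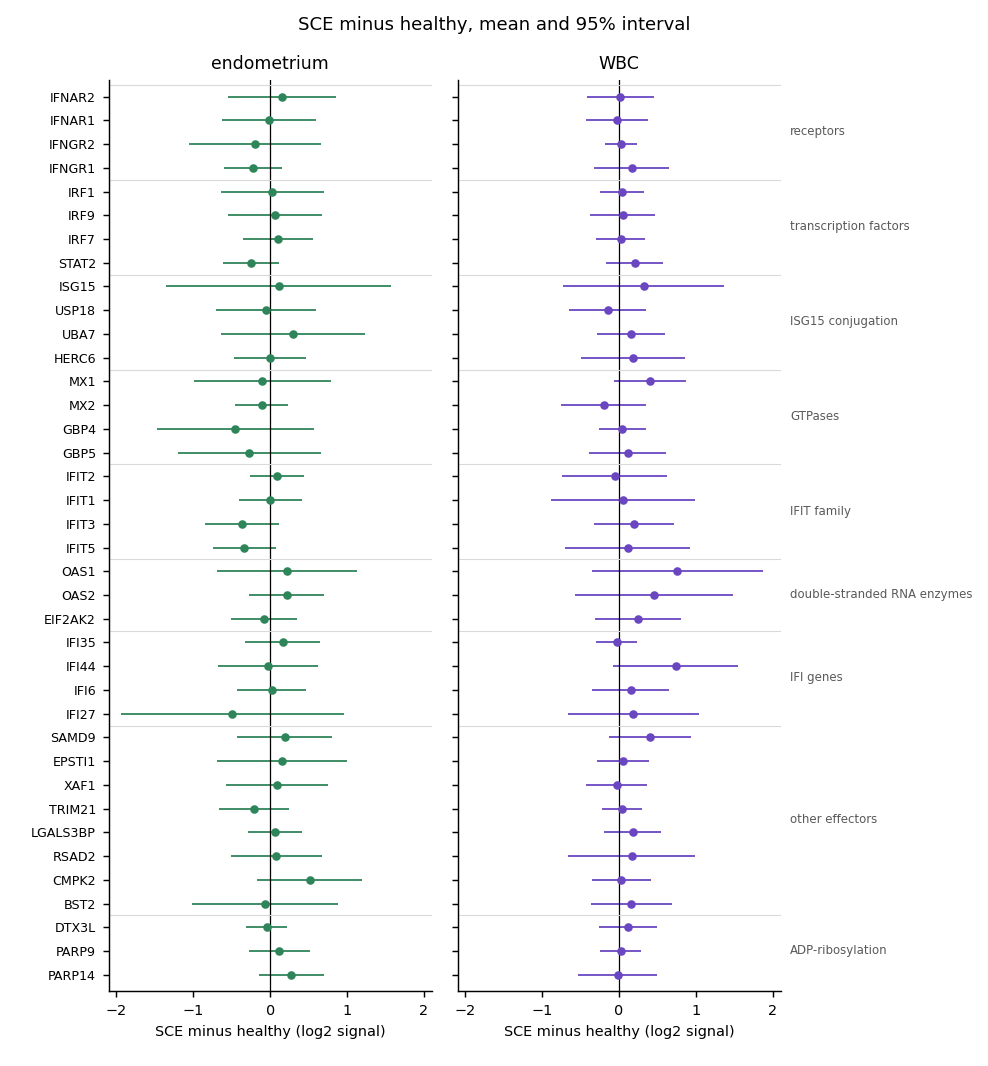
Difference between SCE and healthy cows in endometrium (left) and WBC (right) for the 38 members, in log2 signal on the x axis, as the mean with its 95% interval (4 cows against 4, and 3 against 3 for IFNAR1 in endometrium, where 2 spots were masked). Every interval includes 0 in both tissues, and most points in the right panel lie at or above 0.

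In endometrium the members were spread evenly around 0. The difference was above 0 in 20 members and below 0 in 18, with a median of 0.01 and a range from -0.49 (IFI27) to 0.51 (CMPK2), and 50.6% of all genes were above 0. The count of 20 depended on single cows: it was 12 without SCE cow 718, 12 without SCE cow 833 and 8 without healthy cow 841.

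CMPK2, a mitochondrial nucleotide kinase next to RSAD2 in the genome, gave 6.69, 6.72, 6.86 and 7.01 in endometrium of healthy cows and 7.28, 8.25, 7.08 and 6.72 in endometrium of SCE cows. The highest value was that of cow 833, and the lowest SCE value, that of cow 846, lay within the healthy range. The difference was 0.51 ± 0.30 (SE, 95% interval -0.17 to 1.1996, exact permutation p = 0.114, limma TREAT adjusted p = 1), and 0.21 without cow 833.

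IFI27 gave 10.36, 12.90, 11.96 and 12.59 in healthy and 12.84, 10.86, 11.21 and 10.94 in SCE cows, with healthy cow 841 the lowest of all. Its difference was -0.49 ± 0.63 (SE, 95% interval -1.94 to 0.96, exact permutation p = 0.486). GBP4 gave 8.93, 9.67, 9.68 and 10.90 in healthy and 9.79, 8.92, 8.70 and 9.97 in SCE cows. The groups overlapped over most of their range, and the difference was -0.45 ± 0.45 (SE, exact permutation p = 0.514).

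IFIT3 and IFIT5, whose values by cow are given above, had endometrial differences of -0.37 ± 0.21 (SE, 95% interval -0.85 to 0.12, exact permutation p = 0.171) and -0.34 ± 0.18 (SE, 95% interval -0.74 to 0.07, exact permutation p = 0.143). The textbook members ISG15 and MX1 differed by 0.11 (95% interval -1.36 to 1.57) and -0.10 (95% interval -0.99 to 0.79). The sign of both depended on which cow was left out. Receptor and transcription factor genes differed by -0.25 (STAT2) to 0.16 (IFNAR2).

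In WBC more members were above 0 than below, without any of them passing the test. The difference was above 0 in 31 members and below 0 in 7 (81.6%, where 47.4% of all genes were above 0). The median was 0.11 and that of all genes -0.01. Without SCE cow 833 the count above 0 was 20 and the median 0.04. The WBC array of that cow stood apart, its median correlation to the rest of the tissue being 0.972, where the rest had 0.984 to 0.989, and its raw median signal 258.5 against 133 to 180.5. Markers of blood cells had differences of mixed sign in the same contrast, and none passed the test. Above 0 were 2 of 4 leukocyte, 5 of 8 T and NK cell, 0 of 2 B cell and 3 of 4 monocyte and macrophage markers. Their medians were 0.02, 0.05, -0.14 and 0.11, and the 1 plasmacytoid dendritic cell marker had 0.24. The signs were one-sided in 3 further lists. Above 0 were 0 of 4 neutrophil markers (median -0.20), 0 of 4 erythroid markers (median -0.36) and 3 of 3 platelet markers (median 0.31). Their mean levels overlapped between the groups, at 9.80 to 10.90 in healthy and 9.83 to 10.71 in SCE cows for neutrophils, 11.97 to 13.25 and 11.30 to 12.53 for erythroid cells, and 10.62 to 11.14 and 10.84 to 11.64 for platelets. In a larger set of cows, the paper reports more leucocytes, lymphoid cells and monocytes in the blood of SCE cows. The part of the cell types in the WBC differences was not tested. Members of 1 pathway move together from cow to cow, as described below, so the 38 signs are not separate observations.

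The WBC differences of the named members were led by OAS1. It gave 8.31, 9.05, 9.94 and 8.48 in healthy cows and 10.64, 10.31, 8.47 and 9.38 in SCE cows. The highest values were those of SCE cows 718 and 833 and healthy cow 877, and the difference was 0.76 ± 0.50 (SE, 95% interval -0.36 to 1.87, exact permutation p = 0.257). Without the probe of the OAS1X accession it was 0.67.

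IFI44 gave 7.59, 8.71, 7.20 and 7.87 in WBC of healthy cows and 8.48, 9.39, 8.50 and 7.95 in WBC of SCE cows. Healthy cow 850 lay above 3 of the 4 SCE cows, and the difference was 0.74 ± 0.36 (SE, 95% interval -0.07 to 1.55, exact permutation p = 0.171). IFI44 had the smallest unadjusted TREAT p of the list (0.12), and 0.0234 without cow 850, with an adjusted p of 1. SAMD9 gave 9.87, 10.28, 10.15 and 10.49 in healthy and 10.62, 11.20, 10.58 and 10.01 in SCE cows. Of the SCE cows, 3 lay above all healthy cows and cow 846 lay among them, and the difference was 0.41 ± 0.24 (SE, exact permutation p = 0.229).

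MX1 and ISG15, with the WBC values given above, differed by 0.41 ± 0.21 (SE, 95% interval -0.06 to 0.87, exact permutation p = 0.171) and 0.32 ± 0.47 (SE, 95% interval -0.73 to 1.37, exact permutation p = 0.629). For MX1, healthy cows 850 and 877 lay within the SCE range and cows 841 and 883 below it. The receptors differed by -0.02 (IFNAR1) to 0.16 (IFNGR1) and the transcription factors by 0.02 (IRF7) to 0.20 (STAT2).

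The difference between the SCE effects in both tissues was tested directly. It passed for 0 of 38 members after adjustment and for 0 unadjusted (0.384% of all genes passed unadjusted). The median of the members was -0.15, meaning a lower SCE effect in endometrium than in WBC, and 14 members were above 0 (36.8%, where 51.7% of all genes were). IFI44 had the lowest value (-0.76 ± 0.50 SE) and CMPK2 the highest (0.48 ± 0.36 SE).

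Although status did not separate the cows, the cows differed, and in several of them many members were high or low together. This was described over the 34 members that are not receptors, as each member's level minus its mean over the 8 cows of the tissue. In endometrium, 31 of the 34 were above their mean in SCE cow 718, 30 in healthy cow 883 and 29 in healthy cow 877. In contrast 4 were above it in healthy cow 841, 7 in SCE cow 846 and 8 in SCE cow 836. Healthy cow 850 (16 members) and SCE cow 833 (23 members) lay between. Of all genes, 42.1% to 49.7% were above their mean on these arrays.

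The mean over the 34 members ran in endometrium from -0.45 in healthy cow 841 to 0.37 in SCE cow 718, with 0.32 in healthy cow 883 and -0.32 in SCE cow 836. Each status thus held a high and a low cow, and the group means were 0.00 ± 0.33 (SD, n = 4) for healthy and 0.00 ± 0.31 (SD, n = 4) for SCE cows. The mean of the leukocyte markers in endometrium was highest in cow 718 (9.65) and lowest in cow 833 (8.23), with 9.04 in cow 841, and its part in the order of the cows was not tested.

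In WBC the same mean ran from -0.32 in healthy cow 841 to 0.31 in healthy cow 850, followed by 0.30 in SCE cow 833 and 0.25 in SCE cow 718. Of the 34 members, 29 were above their mean in cow 850, 29 in cow 718 and 1 in cow 841. Healthy cow 877 (15 members) and SCE cow 836 (18 members) lay between. Of all genes, 40.9% to 53.6% were above their mean on these arrays. The group means were -0.08 ± 0.28 (SD, n = 4) for healthy and 0.08 ± 0.25 (SD, n = 4) for SCE cows. Cow 841 was the lowest and cow 718 among the 3 highest in both tissues, whereas cow 883 was the second highest in endometrium and the second lowest in WBC.

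**Figure D4:**
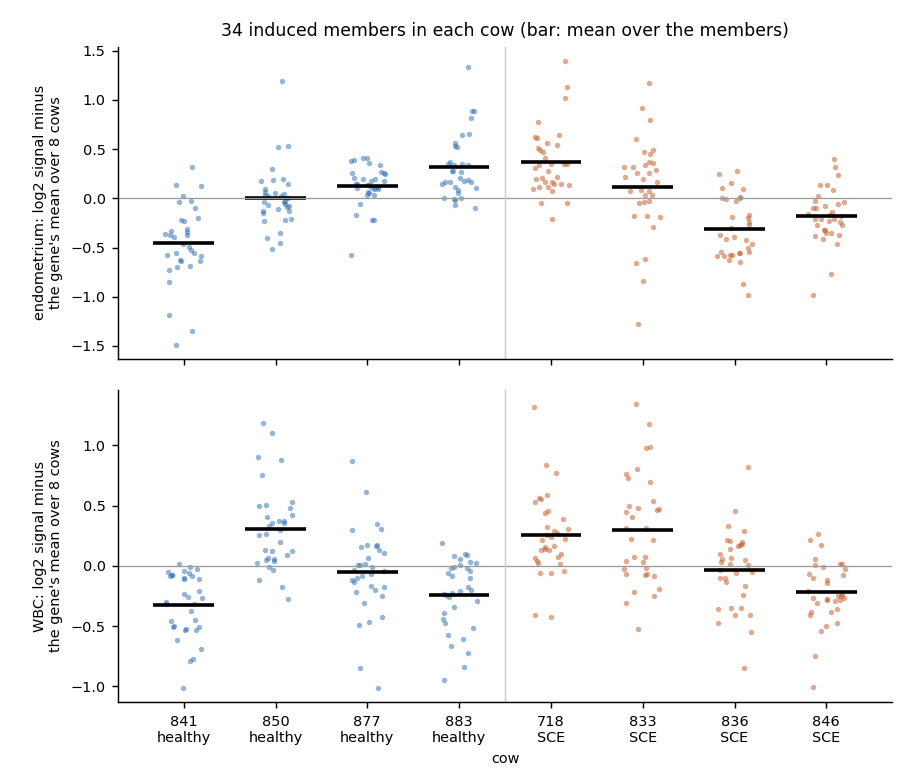
Level of each of the 34 induced members (points) in each cow minus the gene's mean over the 8 cows of the tissue, in log2 signal, for endometrium (top) and WBC (bottom). Black bars are the mean over the members; they run from -0.45 (healthy cow 841) to 0.37 (SCE cow 718) in endometrium and from -0.32 (cow 841) to 0.31 (healthy cow 850) in WBC.

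The members also varied more between cows of a group than most genes did. Their median standard deviation within groups was 0.41 in endometrium and 0.36 in WBC, against 0.27 and 0.22 for all genes. ISG15 (1.05) and IFI27 (1.04) had the highest values in endometrium, and OAS1 (0.86) and ISG15 (0.81) in WBC. Over the 8 arrays of a tissue, with the mean of each group removed, 474 of the 561 pairs of members correlated above 0 in endometrium (84.5%, median r = 0.57) and 463 in WBC (82.5%, median r = 0.43). The points of such a correlation share the array, and no share of pairs above 0 is given here for other genes. A correlation with the members' mean is a different measure from that of pairs. Its median over genes was 0.00 in endometrium and -0.11 in WBC. Only genes that stayed well above background throughout the tissue were counted there, 16712 in endometrium and 16881 in WBC. For the 34 members, each against the mean of the others, the median was 0.81 in endometrium and 0.65 in WBC.

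The correlation of a member with the mean of the others ranged in endometrium from -0.16 (GBP5) to 0.97 (IFI44), with 0.97 for ISG15, 0.96 for IRF1 and 0.94 for USP18. IFIT3 (-0.02), STAT2 (-0.08) and IFIT5 (0.13) were the other members near 0 there. In WBC it ranged from -0.03 (LGALS3BP) to 0.94 (ISG15), with 0.93 for HERC6 and 0.90 for EIF2AK2. IRF1, at 0.96 in endometrium, had 0.18 in WBC. These values rest on 8 arrays each and are given without a test.

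Outside the list, the gene name whose pattern over the 8 endometrial arrays was most like the mean of the 34 members was LOC508347 (r = 0.98, with the group means removed). The RefSeq gene table gives that gene ID the symbol IFI44L, the member that no probe named. Its probe lay at chr3:70489814-70489873, close to that of the expressed sequence TC450455 at chr3:70489235-70489294 (r = 0.96), which was also among the 10 most alike. LOC508347 had levels of 6.95, 7.58, 7.86 and 8.02 in endometrium of the healthy cows. In that of the SCE cows it had 8.06, 7.92, 7.06 and 7.30. Cow 841 was the lowest and cow 718 the highest. The gene was picked for its likeness over these arrays, so this order is no separate evidence. It differed between tissues by -0.28 (adjusted p = 0.685), between SCE and healthy cows by -0.02 in endometrium and by 0.34 ± 0.39 (SE) in WBC. The proteasome activator subunit PSME2 (r = 0.95) was among them too, and the other names among the first 10 were TC408683, ENSBTAG00000030932, TC453487, C22H3ORF23, TC425509, TC437674 and ENSBTAT00000012917, with r from 0.91 to 0.96. The probe of TC437674 lay at chr4:10705140-10705199, close to a probe of the member SAMD9 at chr4:10706910-10706969. Whether both read the same transcript was not tested.

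In WBC the gene most like the members was DDX58 (r = 0.97), a gene of the second list described below, which encodes the RNA sensor RIG-I, itself induced by interferon. Its WBC levels were 8.10, 8.94, 8.52 and 8.35 in healthy and 8.97, 8.92, 8.37 and 8.10 in SCE cows. Cows 850, 718 and 833 were the highest and 841 and 846 the lowest, an order that follows from how the gene was picked. ENSBTAG00000040381 (0.96), the mitochondrial dehydrogenase GPD2 (0.96), TC449423, TC414546, FCHO2, the Fc receptor gene FCGR3A, ENSBTAG00000007554, KCNAB1, ENSBTAT00000048651 and C16H1orf112 followed, with r of 0.94 or more. One probe of ENSBTAG00000007554 shares 20 bases with an IFI6 probe. None of the names given here was among those of both tissues. Further down, ENSBTAT00000030444 ranked 15 in endometrium (r = 0.90) and 19 in WBC (r = 0.91).

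The OAS1 paralogues differed from each other more than the mean of their probes shows. The probe with the OAS1X accession was well above background in both tissues of the same 3 cows, healthy cow 877 and SCE cows 718 and 833, and in neither tissue of the other 5. In the 3 cows its level was 9.14, 9.55 and 9.33 in WBC and 7.12, 7.73 and 7.26 in endometrium (cows 877, 718 and 833). In the other 5 cows it lay between 5.34 and 5.75 in WBC and between 5.31 and 5.52 in endometrium. The on or off state thus followed the cow and not the tissue or the status. Such a state, the same in both tissues and on in 1 to 7 cows, occurred for 62 of 46615 probes (0.133%), and no other probe had it in these 3 cows. OAS1X was the only member of the list among the 62.

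The probe with the OAS1Y accession was well above background on every array. In WBC it had levels of 11.19, 13.66, 13.08 and 11.67 in healthy cows and 13.49, 14.09, 12.13 and 13.04 in SCE cows. In endometrium it had 12.12, 13.37, 14.05 and 14.17 in healthy cows and 14.58, 13.50, 12.50 and 12.79 in SCE cows. The tissues overlapped, and the tissue difference was 0.59 ± 0.44 (SE, adjusted p = 0.401). Its highest endometrial value was in cow 718 and its lowest in cow 841, as for the mean of the members.

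The probes with the OAS1Z accession averaged 8.47 ± 0.20 (SD, n = 4) in WBC of healthy and 9.08 ± 0.77 in WBC of SCE cows, and 6.45 ± 0.57 and 6.60 ± 0.43 in endometrium. Their tissue difference was -2.25 ± 0.24 (SE, limma TREAT adjusted p = 2.16e-06). Each of these probes was well above background on 5 of 8 endometrial arrays, so the size of the difference is limited by background there. Taken by accession, OAS1Z was the only paralogue called between the tissues, and OAS1X (-0.77, adjusted p = 0.492) and OAS1Y were not. In WBC, the differences between SCE and healthy cows were 1.02 ± 1.17 (SE) for OAS1X, 0.79 ± 0.58 for OAS1Y and 0.61 ± 0.33 for OAS1Z, and none passed the test.

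**Figure D5:**
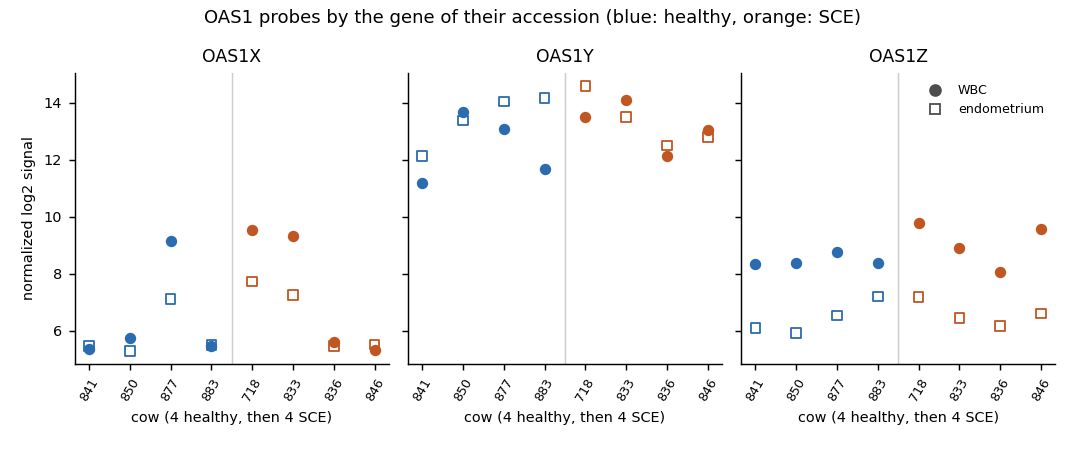
Normalized log2 signal of the probes named OAS1 in each cow, split by the gene of their accession (OAS1X and OAS1Y 1 probe each, OAS1Z the mean of 2); filled circles are WBC, open squares endometrium, blue healthy and orange SCE cows. Levels of different panels are from different probes and are not comparable; in OAS1X, cows 877, 718 and 833 lie at 7.12 or above in both tissues and the other 5 cows at 5.75 or below.

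The rest of the interferon pathway was read from a second list of 97 genes, of which 70 were measured. Of these, 51 were called lower and 2 higher in endometrium, with a median difference of -1.23, where 30.4% of all genes were called lower and 22.3% higher with a median of -0.15. When each tissue was normalized on its own, 31 were lower and 9 higher, with a median of -0.46. Among sensors and adaptors, which detect foreign nucleic acid, 11 of 15 were lower, among them MYD88 (-2.06), and the kinase TBK1 was higher (0.57, adjusted p = 0.0485), a call lost with normexp correction (0.0608) and with the 75th percentile scaling (0.0573). Of the signalling genes, 12 of 15 were lower, including IRF5 (-4.60) and JAK1 (-1.10, not called at -0.37 with each tissue normalized on its own). Of 32 other induced genes, 26 were lower, among them ISG20 (-5.48), an exonuclease, and IDO1 (-6.27), the enzyme that breaks down tryptophan. These were well above background on 3 and 4 of 8 endometrial arrays, so the size of their differences is limited by background there. The chemokine CXCL9 was higher (0.87, adjusted p = 0.00527), without being well above background on any WBC array.

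Of the 8 interferon genes measured, IFNG, IFNK, IFNW1 and IFNAG were not well above background on any of the 16 arrays. IFNAC (-0.50, well above background on 1 endometrial array) and IFNT3 (-0.70) were called lower in endometrium, and neither when each tissue was normalized on its own. No gene of the second list passed the test between SCE and healthy cows in either tissue. CXCL10, the chemokine that draws activated T cells, was the only one to pass the unadjusted test of the difference between the tissues' SCE effects (-0.99, adjusted p = 1 by limma TREAT), with -0.71 ± 0.34 (SE) in endometrium and 0.28 ± 0.18 in WBC.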

How the data were processed

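RNA of WBC and endometrium was hybridised by the authors to 16 one-colour (Cy3) arrays, and the intensities were read from the scans with Agilent Feature Extraction 10.10.1.1. The deposited files hold these intensities as not normalized spot signals, and a table with the authors' normalized intensities was used only as an alternative, after taking log2. The build in the array files is Btau_3.1, while the array design text names UMD3.1, so coordinates are given as the files have them.

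Groups were taken from the sample labels. Control spots and spots marked as outliers were left out, quantile normalization was applied to the log2 of the median signals over all 16 arrays, and the probes of a gene name were averaged. No background was subtracted. Groups were compared with limma (3.58.1, R 4.3.3) by TREAT, at a minimum change of 1.2-fold set here. Benjamini-Hochberg adjustment was over all genes, with a threshold of 0.05. The study's methods name TREAT beside FCROS, which was not used here. The SCE contrasts used the 8 arrays of a tissue, and the tissues were compared in 1 model of the 4 groups. Single genes were also compared by exact permutation tests, two-sided. Standard errors are those of the moderated fit and intervals cover 95%. The number of arrays, 4 per group, limits the precision. The computation was tested on simulated data with known changes.

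The members and gene lists were chosen with earlier results of these data known. Values of every array were given for ISG15 and MX1, for the 5 members with the largest absolute SCE difference per tissue (with a probe well above background in all 4 cows of a group) and for the 3 largest rises and falls between tissues among called members. The genes most alike were the 10 outside both lists with the highest correlation with the induced members per tissue, and genes of the second list that ranked among them. CMPK2, IFI6, OAS1 by accession, LOC508347 and DDX58 were given in further detail after their values had been seen. Symbols of accessions were taken from the RefSeq gene table. A search of promoters for interferon motifs was not done, as no promoter sequence was used here.

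Both samples of a cow come from the same animal, which is where the pairing comes from. Over 14894 genes, the deviations of a cow's samples from their group means correlated between -0.29 (cow 833) and 0.14 (cow 850). The alternatives were within-tissue quantile normalization, 75th percentile scaling of processed signals, normexp correction, the authors' normalized values, the brightest probe, naming by accession, a filter on dim probes, fold thresholds of 1 and 1.1, a trended robust prior, the slide row or the cow as a block, 1 fit of all arrays, and leaving out each cow. Figures were drawn with matplotlib 3.10.9.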

Additional observations from a re-analysis of the deposited data

Results flagged for a closer look

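In 16 quantities (the members with values by array and the OAS1 paralogues) each of the 4 groups was checked for a cow that stood far from the other 3. Of the 64 groups, 5 had one, and chance gives this in about 1 in 20 groups. Among WBC of SCE cows, IFIT5 was at 10.08 in cow 833, where the other 3 cows lay between 8.33 and 8.43. Among endometria of SCE cows, SAMD9 was at 6.44 in cow 836, with the others between 7.27 and 7.40. The remaining 3 were all healthy cow 877: OAS1X by accession was at 9.14 in WBC (others 5.38 to 5.75) and at 7.12 in endometrium (others 5.31 to 5.51), and OAS1Z by accession was at 8.77 in WBC (others 8.34 to 8.39).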

How the results depend on the processing

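No member passed the adjusted test between SCE and healthy cows in any setting: the smallest adjusted p by limma TREAT or its moderated test was 0.995 in endometrium and 1 in WBC. Between the tissues, normalizing each tissue on its own gave 17 members lower and 5 higher, a median of -0.52 and 10 members above 0, with ISG15 (-0.89, adjusted p = 0.16) and OAS1 (-0.53, adjusted p = 0.385) among those no longer called. The 75th percentile scaling gave a median of -1.74. The members called higher were 3 with the brightest probe of a gene and 2 at a threshold of 1. With the brightest probe, that of the OAS1Y accession, OAS1 was at 0.59 between the tissues and at -0.081 between SCE and healthy endometrium, against -1.17 and 0.22. With the cow as a replicate block, 32 members were called between the tissues (31 lower, 1 higher, median -1.34) and 0 for the difference of the SCE effects (median -0.15), and only the call of CMPK2 changed. Leaving out each cow in turn gave 28 to 31 tissue calls, with OAS1 lost without cow 850 (-1.08). In endometrium it gave 8 to 29 members above 0 between SCE and healthy cows, ISG15 from -0.37 to 0.45, MX1 from -0.38 to 0.15 and OAS1 from -0.086 to 0.45, in each case changing sign. In WBC it gave 20 to 35 members above 0, and 0 to 1 past the unadjusted test (OAS1 without cow 836, IFI44 without cow 850). Where no value above shows it, the cause was not tested. Leaving the OAS1X probe out of OAS1 and adding LOC508347 to the list were alternatives chosen after seeing the data and changed no call. Depth on these arrays limits the members that were not well above background in a group, such as IFIT1 in endometrium, to a bound.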
